A study of Arabidopsis thaliana with 6 samples.

Results

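EMB genes are Arabidopsis thaliana genes named for the embryo-defective seeds that appear when they are mutated, and the results below follow their transcripts in leaves grown with and without added nitric oxide (NO). They were chosen by name alone, as loci whose main symbol in the RefSeq gene table is EMB or emb followed by digits. That gave 160 loci, of which 153 had at least 1 probe on the array and 148 were among the 18614 genes tested. The family as a whole was selected on earlier results of this same contrast, so the counts and changes below describe it and are no independent test of it.

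EMB loci came from forward screens for mutants whose embryos stop developing, and most are thought to encode proteins that every growing cell needs. Many of the proteins act in chloroplasts, where the embryo depends on plastid translation and metabolism long before it photosynthesises, and others act in cytosolic translation, splicing, chromosome maintenance or primary metabolism. Because null mutants die as embryos, the symbol records a phenotype and not a shared biochemical function or a place of expression.

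The plants were wild-type A. thaliana raised from seed in fumigation chambers. The control plants received ambient air and the treated plants that air mixed with 3 ppm NO, day and night until harvest at 4 weeks, and total RNA came from whole rosette leaves. There were 3 one-colour Agilent arrays per group, from what the labels call independent biological experiments. How much NO the ambient air itself held is not stated in the sources used here. Rosette RNA pools many cell types, so fewer cells of a type and less RNA per cell cannot be told apart.

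All 3 ambient arrays lay on one slide with one scan and all 3 NO arrays on the other, so slide, scan and treatment cannot be told apart in any value below. Across the arrays 65.2% to 72.0% of 61657 gene spots were well above background and no spot was saturated. The tissue label was checked with marker genes. All 6 mesophyll markers were well above background on every array, and 9 of 12 seed and embryo markers, the storage protein and oleosin genes CRA1, CRU2, CRU3, SESA1 to SESA4, OLEO1 and OLEO2, were not well above background on any array. The other seed and embryo markers, LEC1, FUS3 and ABI3, were well above background on some arrays of both groups. All 4 flower markers, the shoot meristem markers STM and KNAT1 and the root marker SCR were so on all 6 arrays. The summed level of the seed and embryo markers was 0.122 to 0.176 in ambient air and 0.128 to 0.171 in NO, in units of each array's 75th percentile of probe signal. In NO the summed mesophyll markers were higher (636 to 681 against 1136 to 1404), and so were those of dividing cells (0.290 to 0.330 against 0.470 to 0.542), shoot meristem (1.61 to 1.66 against 2.10 to 2.30) and flower (0.537 to 0.670 against 0.758 to 0.785), while the 4 root markers summed to 0.835 to 0.869 against 0.736 to 0.808. Of the 4 flower markers 3 passed as higher, while AG (-0.20) did not pass. The part of all these markers in the EMB results was not tested.

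Most EMB transcripts with a probe were present in rosette leaves in both groups. Of the 153 EMB loci with a probe, 147 were well above background on all 6 arrays. Of all 25383 loci with a probe, 17808 were so. A gene was tested only if its probe was well above background on every array of at least 1 group. The share among tested genes, 147 of 148 EMB genes beside 17808 of all 18614, is therefore largely set by that filter. The 12 EMB loci outside the 148 gave no test. For EMB1444, emb2411, emb1129, EMB1674, EMB2788, EMB2771 and EMB3142 no probe was matched. Probes for emb2204, EMB3111, which encodes a pentatricopeptide repeat protein, and EMB2271, which encodes a protein of the U3 small nucleolar particle, were not well above background on any array. EMB2795, which encodes the condensin subunit CAP-H, and EMB2743 were well above background on 1 NO array each and on no ambient array.

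Leaves grown in NO had lower levels of more EMB transcripts than higher ones. With limma and a Benjamini-Hochberg adjusted p of 0.05, 70 of the 148 (47.3%) passed as lower in NO, where 32.4% of all tested genes did. As higher, 18 (12.2%) passed, where 25.8% of all tested genes did, and 60 did not pass. The 3 NO arrays lay below all 3 ambient arrays in 75 members, against 37.7% of all tested genes, and above them in 20, against 29.0%. The median change of the 148 was -0.15 on the log2 scale, with quartiles at -0.38 and -0.00 and a range from -1.59 to 1.61, and the median of all tested genes was -0.05. Since the contrast was used to propose the family, nothing is read from these shares beyond their values. With scaling to each array's median in place of the 75th percentile, 77 members passed as lower and 9 as higher.

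Most of the changes were small. Of the members that passed, 55 of 70 falls and 17 of 18 rises were under 1.5-fold. Among all tested genes, 4664 of 6023 falls and 2662 of 4807 rises were under 1.5-fold. A change of at least 2-fold with a passing test was fitted in 4 members that were lower (all tested genes, 2.00%) and in 1 that was higher (all tested genes, 4.98%). The 1 is EMB2656, whose ambient signals were all too dim to clear background, so that it can only be given as at least 1.31-fold higher. The SE of a member's log2 change had a median of 0.064. Any 2 arrays of the same group differed by a median of 0.0717 to 0.0928 (absolute log2 difference over the members), and any 2 of different groups by 0.193 to 0.265. Relative to each gene's ambient mean, the members' median stood at -0.01, -0.01 and 0.02 in the 3 ambient arrays and at -0.19, -0.20 and -0.12 under NO. It was lower on each NO array, but these arrays share a slide and the family was chosen on this contrast.

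**Figure D1:**
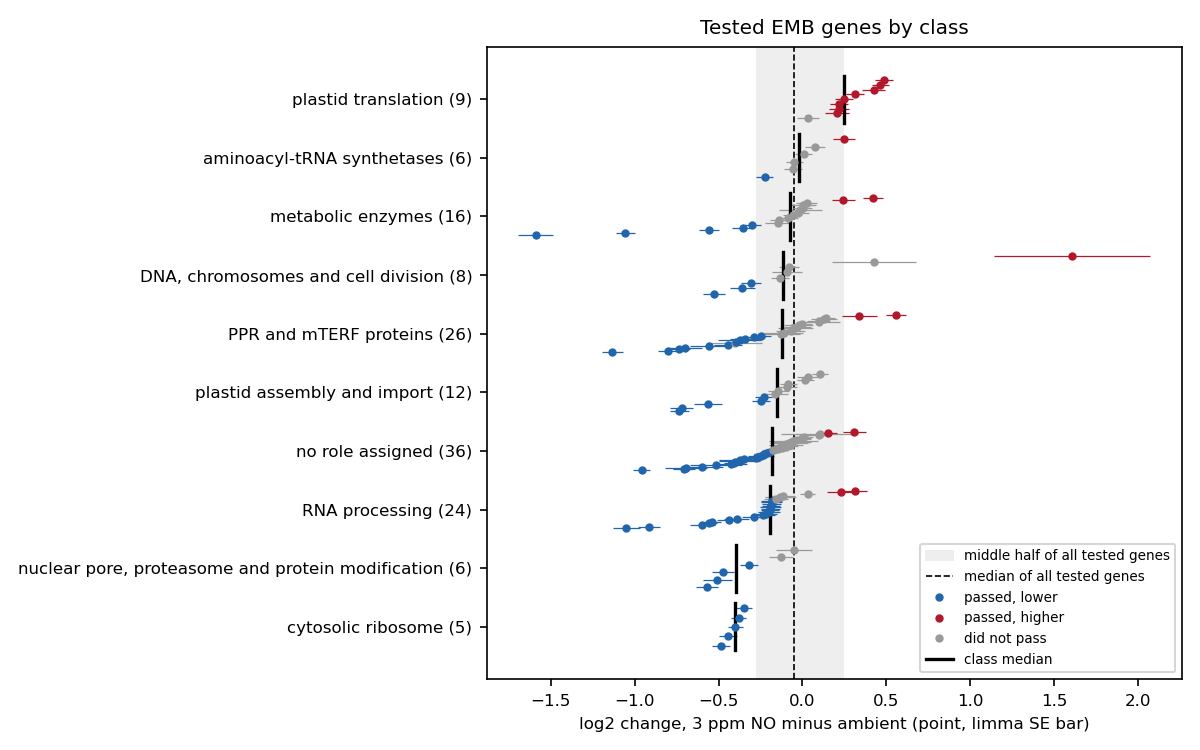
Log2 change (3 ppm NO minus ambient) of the 148 tested EMB genes, one point per gene with its limma SE, in rows by functional class with the number tested. Blue points passed as lower, red as higher and grey did not pass, the short black bars are class medians, the dashed line is the median of all 18614 tested genes and the grey band spans their quartiles. The 5 cytosolic ribosomal protein genes lie to the left (median -0.40) and the 9 plastid translation genes at or to the right of 0 (median 0.25).

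The direction differed among functional classes, into which 118 of the 160 loci were placed by the textbook role of their protein. All 5 members for the cytosolic ribosome were lower, and 8 of 9 for plastid translation were higher. Whether classes differ from each other was not tested, and each class count stands beside the 32.4% lower and 25.8% higher of all tested genes. Genes are named below by a rule on the size of change and on class, and members named beyond that rule were chosen after their values were seen.

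The cytosolic ribosome was represented by 5 EMB genes, and all 5 were lower in NO, by -0.35 to -0.49 on the log2 scale with a median of -0.40. EMB3010, which encodes ribosomal protein S6 of the small subunit, had signals of 4.26, 4.58 and 4.59 times the 75th percentile in ambient air and of 3.12, 3.30 and 3.16 in NO. The groups did not overlap, and its change was -0.49 ± 0.05 (SE, n = 3 per group), with -0.19 from its second probe. For emb2171, which encodes L23 of the large subunit, the ambient signals were 36.4, 36.5 and 36.9 and the NO signals 28.4, 27.0 and 27.8. It fell by 0.40 ± 0.05 with no overlap. EMB2296 (protein L8) changed by -0.45, EMB1080 (S11) by -0.38 and emb2386 (L19) by -0.35, again with every NO array below every ambient one. All 5 calls held in each of 18 alternative analyses, and quantile normalization gave a median of -0.60. Cytosolic ribosomal proteins are encoded by families of similar genes, and cross-hybridisation between them was not tested.

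Of 9 EMB genes for translation inside plastids, 8 were higher in NO and none was lower, with a median of 0.25. The strongest was emb2184, which encodes plastid ribosomal protein L31, with 6.94, 7.33 and 7.30 in ambient air and 10.3, 9.65 and 10.3 in NO. This is a rise of 0.49 ± 0.05, or 1.40-fold, and the groups stood well apart. The transcript of emb1473 (plastid L13) went from 4.28, 4.09 and 4.27 to 6.04, 5.85 and 5.58, a rise of 0.47 ± 0.05. EMB3113 (plastid S5) rose by 0.42 ± 0.07, from 1.95, 1.99 and 2.19 to 2.68, 2.93 and 2.62. EMB3137 (plastid S13) rose by 0.31 ± 0.05. The other rises were those of emb2394 (L6, 0.25), EMB3105 (L18, 0.22, with a second probe at 0.17 that did not pass), EMB3136 (L10, 0.21) and emb2726, which encodes the plastid elongation factor Ts (0.22, with 0.57 from a second probe). EMB3126, for plastid L1, did not pass with its brightest probe, at 13.4, 13.6 and 14.5 in ambient air and 14.2, 13.3 and 15.2 in NO, with overlapping groups. Of its other probes, 1 passed as higher at 0.22 in a fit over all probes and 1 did not pass at 0.12. The mesophyll markers given above were higher in the same arrays, and their part in these rises was not tested. With scaling to the array median 4 of the 9 passed as higher.

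Ribosomal protein genes without an EMB symbol, found by words in their synonyms, mostly had changes of similar sign. Genes lacking such words were not counted, so these lists may not stand for all ribosomal protein genes. Of 16 for plastid ribosomes, 12 were higher and 1, RPL3P, was lower at -0.46, with a median of 0.37. RPL4, which also carries an EMB number among its synonyms, was highest at 0.75. Without ambient replicate 2 or 3 the lower count was 0. Of 10 for cytosolic ribosomes, 9 were lower and none was higher, with a median of -0.37. RPS15A, at 0.03, was the 1 that did not pass. These genes were measured on the same arrays as the EMB members and share the slide difference. Of all tested genes, 32.4% passed as lower and 25.8% as higher.

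**Figure D2:**
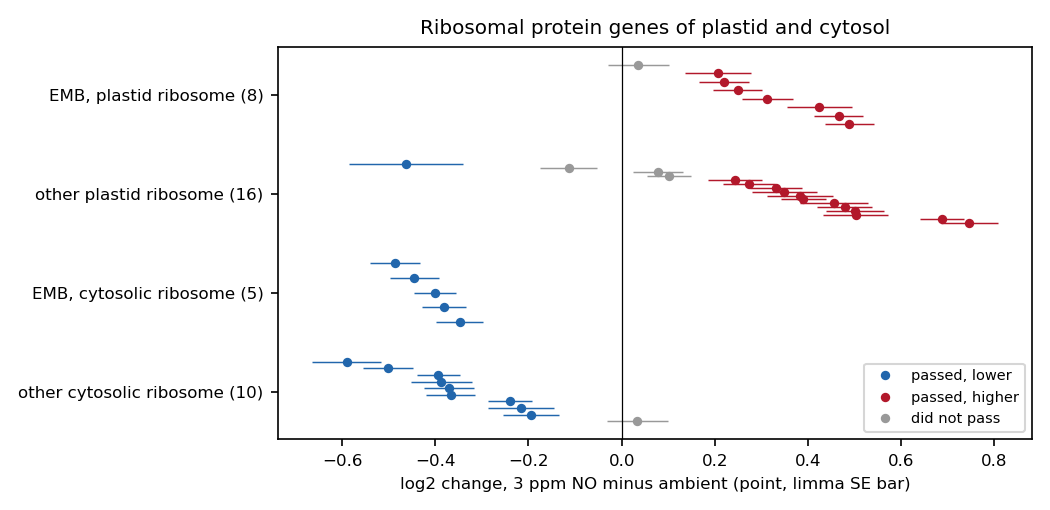
Log2 change (3 ppm NO minus ambient) of genes for ribosomal proteins of plastid and cytosol with and without an EMB symbol, one point per gene with its limma SE, coloured as lower (blue), higher (red) or not passed (grey). All 5 EMB genes and 9 of 10 others for the cytosolic ribosome lie below 0, and 7 of 8 EMB genes and 12 of 16 others for the plastid ribosome passed above 0.

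Genes of RNA processing were mostly lower in NO. Of 24 tested, 18 passed as lower and 2 as higher, with a median of -0.19. The largest fall was that of EMB2777, which encodes a SAS10-type protein of the nucleolar machinery that assembles ribosomes. Its signals were 2.20, 2.03 and 2.37 in ambient air and 1.04, 0.999 and 1.15 in NO, with no overlap, a change of -1.05 ± 0.08 or 2.07-fold lower. A second probe for EMB2777 gave -0.77. EMB2762, for another ribosome assembly factor, NOC4, fell by 0.56, from 1.02, 0.992 and 0.968 to 0.674, 0.658 and 0.688.

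Members for splicing proteins included falls, a rise and genes that did not pass. EMB2765, for an aquarius-type protein of the spliceosome, changed by -0.54, but its second probe gave -0.07 and did not pass. emb1644, for the Sm-like protein LSM4, changed by -0.44 (second probe -0.26) and emb1220, for a PRP31-type splicing factor, by -0.29. emb1507, for the BRR2-type helicase, was higher at 0.23, a call kept in 9 of 18 alternatives. EMB3011, for the PRP16-type helicase, did not pass at 0.03. The deaminases TAD2 (emb2191) and TAD3 (EMB2820), which together edit tRNA anticodons, were lower by -0.23 and -0.18. Their calls were kept in 9 and 7 of 18 alternatives.

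Within RNA processing, 7 members act in organelles, of which 5 were lower, 1 was higher and 1 did not pass. EMB3108, for the chloroplast RNA helicase RH22, had 0.395, 0.428 and 0.404 in ambient air and 0.231, 0.219 and 0.202 in NO. It fell by 0.91 ± 0.07, or 1.88-fold, and its second probe gave -0.84. emb2746, for chloroplast RNase J, fell by 0.60. EMB1865, for a CRM-domain protein of the family that acts in organelle intron splicing, was the 1 that rose, by 0.31 ± 0.07, from 2.99, 2.80 and 3.21 to 3.94, 3.57 and 3.68. The helicase members emb1138 (RH3), EMB25 (ISE2) and EMB1586 (ISE1) were lower by -0.20, -0.18 and -0.19 with the brighter probe, and their other probes gave 0.06, 0.13 and 0.31 and did not pass.

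The number of RNA processing genes that passed as lower depended on the setting. Of the 18 falls, 15 were under 1.5-fold, beside 4664 of 6023 falls among all tested genes. The lower count was 11 without ambient replicate 3, 9 without NO replicate 1, 10 without NO replicate 2, 11 with no filter on dim probes and 10 with the dimmest probe of each gene. The higher count of 2 became 1 without ambient replicate 1 or 3 and without any single NO replicate.

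Pentatricopeptide repeat (PPR) proteins bind RNA in chloroplasts and mitochondria and are the largest protein family among the EMB loci with an assigned role. Of 23 tested PPR genes, 11 were lower, 1 was higher and 11 did not pass, with a median of -0.25. The deepest fall was that of emb1796, with 0.861, 0.891 and 0.959 in ambient air and 0.393, 0.431 and 0.412 in NO. It changed by -1.13 ± 0.06, or 2.19-fold lower, and the groups stood far apart. EMB175 fell by 0.80 ± 0.06, from 0.421, 0.445 and 0.439 to 0.265, 0.241 and 0.243. EMB2744 had 0.0812, 0.0906 and 0.0903 in ambient air and 0.0539, 0.0527 and 0.0508 in NO, a change of -0.73 ± 0.06, and its second probe gave -0.58. EMB2217 was lower by -0.70.

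The 1 PPR gene that passed as higher was EMB2654, at 0.762, 0.902 and 0.967 in ambient air and 1.12, 1.01 and 1.19 in NO. Its change was 0.34 ± 0.10, and it passed in 11 of 18 alternatives. The 3 tested members of the mTERF family, which bind organelle nucleic acids, did not move together. EMB3114 rose by 0.56 ± 0.06, from 1.49, 1.5 and 1.67 to 2.32, 2.27 and 2.26, while EMB93 (0.10) and EMB2219 (-0.13) did not pass. The count of 2 higher PPR and mTERF genes became 1 without ambient replicate 1 or 2 or NO replicate 1 or 3.

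Among 12 EMB genes for plastid assembly and protein import, 5 were lower and none was higher, with a median of -0.15. The 5 all encode GTPases related to bacterial ribosome-assembly or translation factors. EMB2001, of the EngB type, had 2.50, 2.33 and 2.32 in ambient air and 1.46, 1.37 and 1.47 in NO, and fell by 0.73 ± 0.06. EMB2785, of the BipA type, fell by 0.72 ± 0.07, from 1.21, 1.35 and 1.35 to 0.753, 0.777 and 0.844. The groups were separate for both. emb2738 (Der type) was lower by -0.56, while its other probes gave -0.34 and -0.03 and did not pass. EMB3129 (RbgA type) was lower by -0.25, with 0.04 from a second probe that did not pass, and EMB269 (Obg type) by -0.23. With the dimmest probe of each gene 3 members passed as lower.

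No import component or FtsH-like protein of that class passed. emb2410, which encodes TIC236, stood at -0.14 and emb1211, which encodes TIC100, at -0.09 (other probes 0.04 and 0.45, not passed), both for import across the chloroplast envelope. The FtsH-like genes emb2458, EMB3144 and EMB2083 stood at 0.02, 0.04 and 0.11. With quantile or cyclic loess normalization 1 member of the class passed as higher.

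Aminoacyl-tRNA synthetases, which charge tRNAs with amino acids, showed little common movement. Of 6 tested, 1 was lower, 1 was higher and 4 did not pass, with a median of -0.02 whose sign turned in 5 alternatives, among them leaving out ambient replicate 1 (0.00589), and which was -0.0350 without ambient replicate 2. emb1027 (arginyl) had 2.72, 2.61 and 2.75 in ambient air and 2.21, 2.33 and 2.38 in NO, and fell by 0.23 ± 0.05. EMB1030 (alanyl) went from 2.87, 2.98 and 3.1 to 3.43, 3.4 and 3.8, a rise of 0.25 ± 0.06 that did not pass when arrays were scaled to their median. The leucyl (EMB2369, -0.05), threonyl (EMB2761, -0.05), valyl (EMB2247, 0.01) and tyrosyl (EMB2768, 0.08) genes overlapped between groups with their brightest probes. A second probe for EMB2247 passed as higher at 0.42, and the class had 2 higher members with the mean or the dimmest probe of each gene. Of 10 synthetase genes without an EMB symbol, 3 (30%) were lower and 1 (10%) was higher, beside 32.4% and 25.8% of all tested genes. The lower share was thus near that of all genes. Their median was -0.14, and scaling to the array median gave 6 lower.

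Metabolic enzymes held the largest fall of all EMB genes but no shared direction. Of 16 tested, 5 were lower, 2 were higher and 9 did not pass, with a median of -0.07. The lower share, 31.2%, was near the 32.4% of all tested genes. EMB2729 encodes a protein resembling starch-branching enzymes. Its signal was 0.134, 0.138 and 0.151 in ambient air and 0.0517, 0.0405 and 0.0488 in NO. The groups did not overlap, and the change was -1.59 ± 0.10, or 3.01-fold lower. Its second probe gave -0.99, normexp background correction gave -0.84 for the first, and the alternatives ran from -1.72 to -0.84.

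EMB3127, for methylenetetrahydrofolate dehydrogenase of folate metabolism, had 0.206, 0.207 and 0.204 in ambient air and 0.104, 0.0998 and 0.0933 in NO. It fell by 1.06 ± 0.06, or 2.08-fold. EMB1873, for agmatine iminohydrolase of polyamine synthesis, changed by -0.56, emb1187, for an ethanolamine kinase family protein, by -0.36 and emb2742, for CTP synthase, by -0.30. EMB3119 encodes ribose-5-phosphate isomerase, which serves the Calvin cycle and the pentose phosphate pathway. It rose by 0.42 ± 0.06, from 16.2, 15.2 and 17.1 to 21.9, 21.0 and 22.1. EMB3003, for the E2 subunit of plastid pyruvate dehydrogenase, rose by 0.25. The count of 2 higher became 1 without ambient replicate 1 or 3 and without NO replicate 1 or 2.

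Nucleoporin, proteasome and protein-modification genes had 6 tested members, of which 4 were lower and none was higher, with a median of -0.40. EMB2766, for the nucleoporin NUP62, had 0.782, 0.809 and 0.867 in ambient air and 0.535, 0.533 and 0.588 in NO. It fell by 0.57 ± 0.06 with no overlap. EMB3012, for a GP210-type nucleoporin, had 0.459, 0.467 and 0.460 in ambient air and 0.310, 0.329 and 0.361 in NO, a change of -0.47 ± 0.07. EMB2753, for an N-terminal acetyltransferase subunit, was lower by -0.51 and EMB2719, for an RPN3-type proteasome subunit, by -0.32. The proteasome lid gene EMB2107 (-0.13) and the importin beta family gene emb2734 (-0.05) did not pass.

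Of 8 tested genes for DNA, chromosomes and cell division, 3 were lower, 1 was higher and 4 did not pass, with a median of -0.11. The lower share, 37.5%, was near the 32.4% of all tested genes. emb1379, for a subunit of the SMC5/6 complex of DNA repair, had 0.164, 0.151 and 0.172 in ambient air and 0.112, 0.108 and 0.117 in NO, and fell by 0.53 ± 0.07. EMB1968, for the replication factor C subunit RFC4, fell by 0.31 ± 0.06, from 1.55, 1.52 and 1.54 to 1.27, 1.15 and 1.31. EMB2773, for the cohesin loader SCC2, was lower by -0.36. EMB2775 (replication factor C subunit RFC3, -0.09) and EMB2813 (DNA primase, 0.43) did not pass. Of 8 markers of dividing cells, 7 were tested and 6 passed as higher in NO, among them MCM5 (0.95), while HTR12 (-0.44) did not pass. PCNA1 (fitted 1.36) and CYCB1;2 (fitted 1.36) were well above background on all 3 NO arrays and on 0 ambient arrays. MCM2 was so on 3 NO and 2 ambient arrays. These 3 entered the test only through the NO arrays, so their fitted changes are uncertain in size. The part of dividing cells in the values of this class was not tested.

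The 1 rise of that class was EMB2656, for the condensin subunit CAP-G, which is needed in mitosis. Its signals were 0.00517, 0.0101 and 0.0166 in ambient air, none of them well above background, and 0.0465, 0.0210 and 0.0252 in NO, all of them well above it. The lowest NO value lay just above the highest ambient value. Its fitted change was 1.61 ± 0.47, the largest SE among the members, and against the lowest detectable signal it was at least 1.31-fold higher. It entered the test only through its NO arrays. It did not pass with normexp correction (0.13), without ambient replicate 2 (1.65) or without NO replicate 1 (1.27), which leaves 0 higher members in the class. Nor did it pass with no filter on dim probes or with either replicate block. The other condensin member, EMB2795 (CAP-H), read 0.00543, 0.00794 and 0.0164 in ambient air and 0.0189, 0.0177 and 0.0190 in NO, too close to background for a fold.

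**Figure D3:**
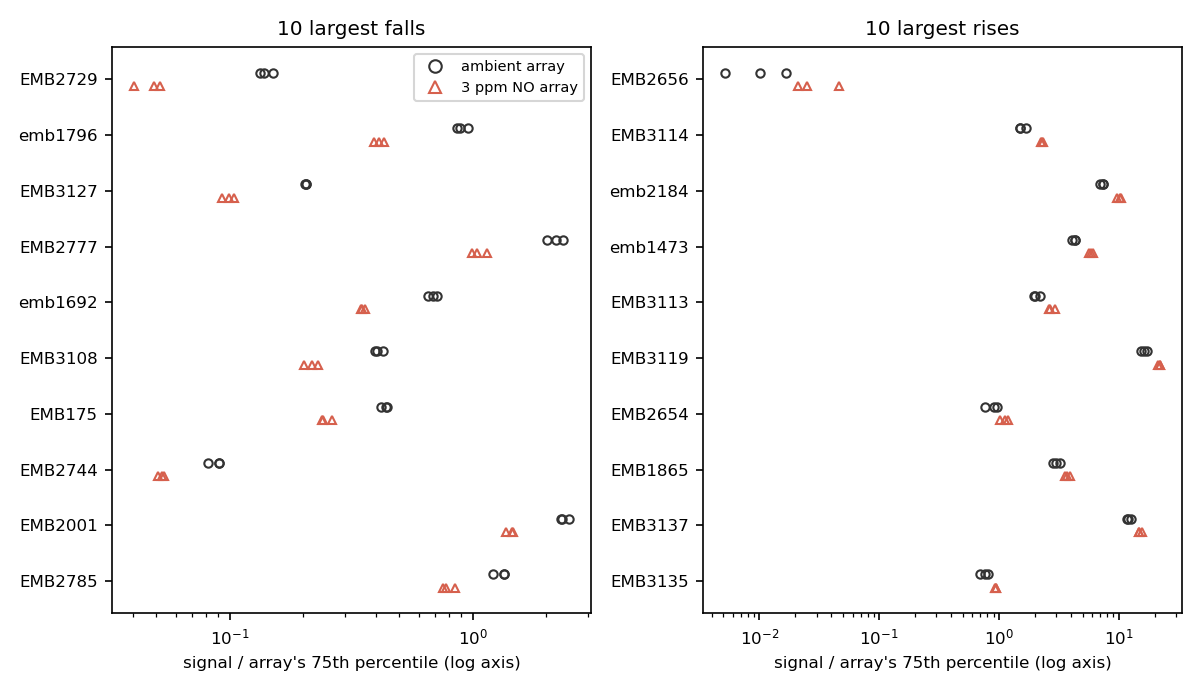
Signal divided by the array's 75th percentile (log axis) of the 10 EMB genes with the largest falls (left) and the 10 with the largest rises (right) among members that passed with separate groups, with an open circle for each ambient array and a triangle for each 3 ppm NO array. EMB2656 at the top right lay near background in ambient air and spread most between arrays. Positions along the axis are not comparable between genes, because each probe has its own efficiency.

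Of 36 tested members with no role assigned, 18 were lower, 2 were higher and 16 did not pass, with a median of -0.18. emb1692 had 0.658, 0.689 and 0.716 in ambient air and 0.362, 0.352 and 0.347 in NO. It fell by 0.96 ± 0.05, or 1.94-fold, the fifth largest fall of the family, with no overlap. EMB140 fell by 0.71 ± 0.06, from 1.06, 1.09 and 1.08 to 0.690, 0.687 and 0.605. EMB3135 rose by 0.31 ± 0.07, from 0.814, 0.695 and 0.761 to 0.945, 0.926 and 0.938, and the other rise was emb2737 at 0.15. The count of 2 became 1 without ambient replicate 1 or 3, without NO replicate 1 or 2, and with normexp correction.

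One member of this set, EMB1290, carries the locus of the cysteine-rich receptor-like kinase CRK17. It had 1.93, 1.98 and 2.03 in ambient air and 1.52, 1.54 and 1.61 in NO, a change of -0.35 ± 0.05. Its second probe gave 0.23 and did not pass, so its direction depended on the probe used.

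Probes for the same EMB gene mostly gave the same sign. Of 54 members with several tested probes, 42 had probes of 1 sign and 0 had probes that passed in opposite directions. The spread between the probes of a member had a median of 0.13 on the log2 scale and was widest in EMB2729, at 0.60. In 6 members that passed as lower the sign turned in at least 1 alternative, and these were EMB1290, EMB3129, emb1138, EMB1586, EMB25 and emb1067.

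**Figure D4:**
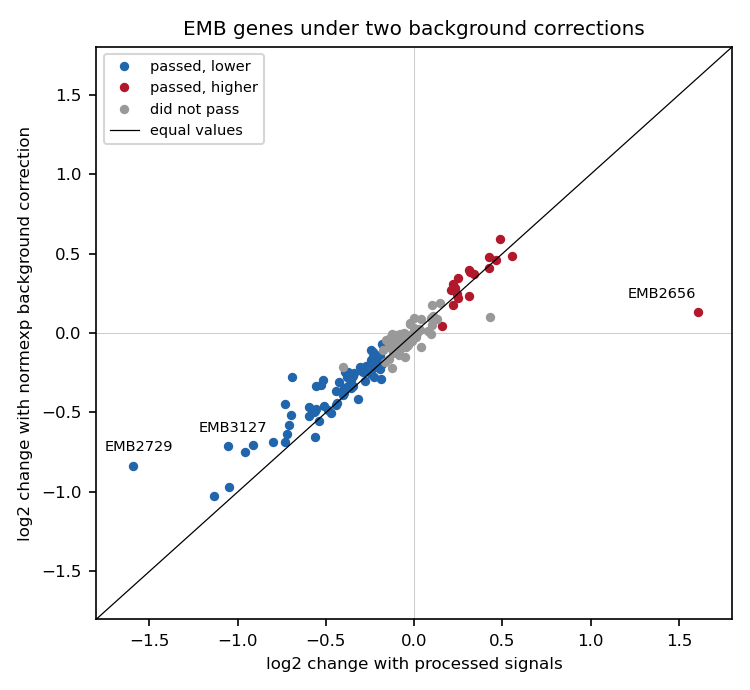
Log2 change (3 ppm NO minus ambient) of the EMB genes from the scanner software's processed signals (horizontal) against that from median signals with normexp background correction (vertical), one point per gene, coloured by the call from processed signals, with the line of equal values. Most points lie near the line, while EMB2729 went from -1.59 to -0.84, EMB3127 from -1.06 to -0.71 and EMB2656 from 1.61 to 0.13.

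Other loci known from seed and embryo screens were set beside the EMB genes. A further 96 loci carry an EMB number only as a synonym, because another name is their main symbol. Of these, 92 were tested, 46 (50%) were lower and 10 (10.9%) were higher, with a median of -0.21. Among them CR88, for a chloroplast chaperone of the HSP90 family, was lower by -1.05 and Cpn60alpha2, for a chaperonin subunit, by -1.04, while RPL4 was higher at 0.75. With scaling to the array median 5 were higher.

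The MEE loci, for maternal effect embryo arrest, had 12 lower and 11 higher among 30 tested, with a median of -0.06 that was -0.0306 without ambient replicate 3 and -0.0116 without NO replicate 3. Their higher count was 6 with normexp and 7 with scaling to the array median. Of 16 EDA loci (embryo sac development arrest), 7 were lower and 3 were higher, with a median of -0.14 that was -0.0825 without NO replicate 3. Of 10 UNE loci (unfertilized embryo sac), 5 were lower and 2 were higher, with a median of -0.16, and these counts became 3 lower without ambient replicate 2 and 1 higher without any single array. Of 6 OVA loci (ovule abortion), OVA9 passed as lower at -0.22, with a list median of -0.04 that ran from -0.125 to 0.00588 with 1 array left out, and none did without ambient replicate 1 or without any single NO replicate. Of 5 TTN loci (titan endosperm nuclei), TTN7 passed as lower at -0.30, with a list median of -0.13, and 2 passed without ambient replicate 3 or NO replicate 3. Of 10 PPR genes without an EMB symbol whose synonyms say so, a small portion of that family, 4 were lower and 1 was higher, with a median of -0.20. Lower shares were 40% for MEE, 43.8% for EDA, 50% for UNE, 16.7% for OVA, 20% for TTN and 40% for PPR. Higher shares were 36.7%, 18.8%, 20%, 0%, 0% and 10% in that order. Of all tested genes, 32.4% passed as lower and 25.8% as higher. The lists overlap. MEE22, MEE32, TTN1 and PPR2, the PPR gene that was higher, also carry EMB numbers. OVA5 and OVA6 are also among the synthetase genes without an EMB symbol. Whether any list differs from the EMB genes was not tested.

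**Figure D5:**
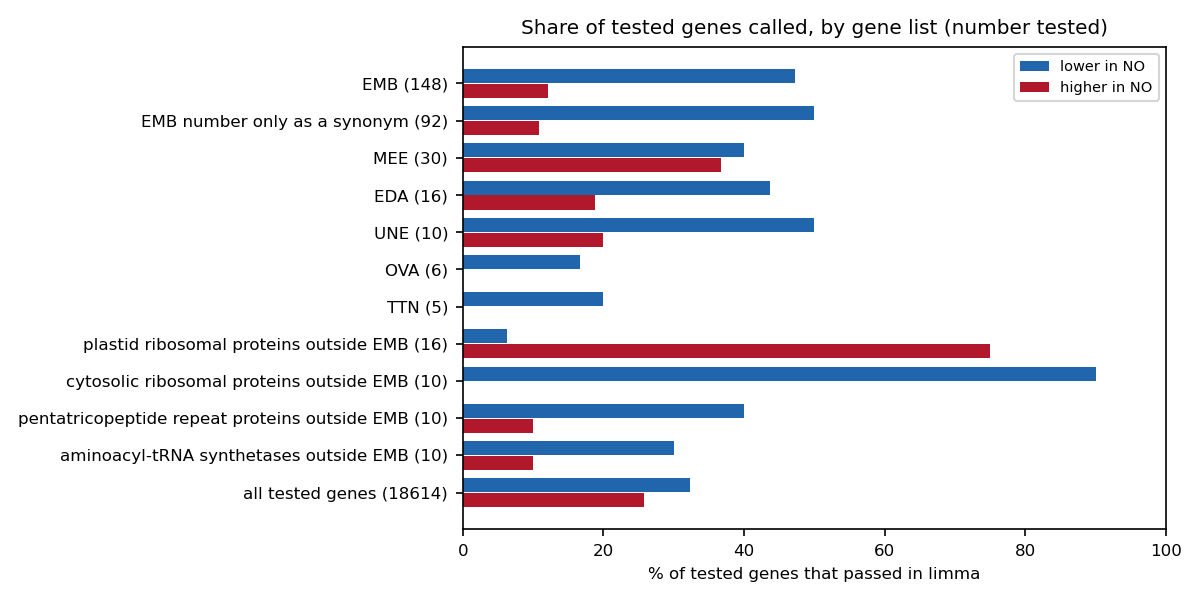
Share of tested genes (percent) that passed in limma as lower (blue) or higher (red) in 3 ppm NO, for the EMB genes, other gene lists and all tested genes, with the number tested in brackets. The EMB genes stand at 47.3% lower and 12.2% higher, close to the loci with an EMB number as a synonym (50% and 10.9%), beside 32.4% and 25.8% of all tested genes.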

How the data were processed

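Members, functional classes and comparison lists were chosen with earlier results of these data known. The deposited files give linear spot intensities after background correction in Agilent Feature Extraction (10.7.3.1 per the file headers, 10.5 per the submitters' processing notes). A deposited matrix of the authors' own log2 values, with scale and centring not stated, was used as an alternative. Flags for outliers, saturation and signal well above background are other values taken as deposited.

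Each array's processed signals were divided by their 75th percentile (715 to 1321) and taken to log2. Control spots and outlier spots were left out, spots of a probe averaged, and 34285 of 43603 probes matched through their transcript to 1 of 25383 loci of the RefSeq gene table, while 9318 did not match. That table's build is newer than the one in the file headers, so coordinates are not printed. A gene was its brightest probe, and testing required all 3 arrays of either group to flag that probe as well above background. NO was set against ambient air in limma 3.58.1 (R 4.3.3; lmFit, then eBayes), with two-sided p-values adjusted by Benjamini-Hochberg over 18614 genes and a threshold of 0.05, and the procedure was tested on simulated data. Values with ± are log2 changes with their SE from limma, and the number of arrays limits their precision.

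Genes named were members past the threshold with separate groups, as the 10 largest falls and rises, every change of 2-fold or more, the 2 smallest adjusted p of each class, and members bounded in 1 group. The gene table has no product descriptions, so classes were assigned by hand (EMB3108 was counted among the organellar RNA processing genes after its values were seen) and the ribosomal, PPR and synthetase lists rest on words in symbols and synonyms. A planned count of promoter motifs was not run. A gene not well above background in a group has only a bound, the bright group's mean over the higher of the lowest signal well above background and its own signal. Alternatives were normexp (offset 50, on median signals, fitted to all spots with controls), and quantile, median and cyclic loess scaling. Others were no filter or a filter on all 6 arrays, the mean or the dimmest probe and the series matrix. The rest were eBayes with trend, replicate blocks and leaving out each array.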

Additional observations from a re-analysis of the deposited data

Results flagged for a closer look

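Spike-in control transcripts, which are not plant genes and are not among the genes compared, had signal on these arrays. Their spots were left out of the main scaling but were among those to which the normexp background correction was fitted. Of 10 spike-in probes, 8 were brighter on every NO array than on every ambient array, and the largest difference was 53.7-fold. They drew attention because they lie outside the EMB measurement and differ between the slides as the treatment does. Their part in the EMB values was not tested.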

How the results depend on the processing

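Of 18 alternatives, all kept the median EMB change below 0, and member counts ran from 44 to 77 lower and from 7 to 20 higher. The same call was kept in every alternative by 37 of the 70 lower members, 7 of the 18 higher and 44 of the 60 that did not pass. Of the values of the genes named by the rule under the alternatives 504 kept direction and side of the threshold, 17 lost the threshold and 0 turned sign, while 6 other lower members turned sign in some alternative. No pairing was seen by replicate numbers in the titles (correlations of same-numbered deviations -0.08, -0.04 and 0.05) or in the source names (0.02 and -0.12). The deviations were taken from means of 3 arrays, so these values cannot decide whether the samples were paired. A replicate block by title numbers gave 63 lower and 16 higher members. A replicate block by source-name numbers, which leaves fewer arrays in use, gave 44 lower and 7 higher members, a median of -0.19, 7 lower RNA processing genes, 4 higher plastid translation genes and 3667 lower genes overall. Scaling to the median gave 9 higher members, 4 higher plastid translation genes and a median of -0.22. The EMB median was -0.12 with normexp, -0.11 with the dimmest probe, and -0.18 to -0.14 when 1 array was left out. Lower RNA processing genes numbered 11 with no filter, 10 with the dimmest probe and 9 to 14 with 1 array left out. Of the class counts under the alternatives 302 stayed within 1.5 times and 58 did not. Of the class medians 136 stayed within the replicate SD, 39 moved further and 5 turned sign. The synthetase class median, near 0, turned sign with cyclic loess (0.00625), the mean or dimmest probe (0.0145), the source-name block (0.00361) and without ambient replicate 1 (0.00589, the range with 1 array left out being -0.0350 to 0.00589). The EDA median turned with the dimmest probe (0.0637) and the OVA median with normexp (0.0140), cyclic loess (0.00926) and without NO replicate 2 (0.00588, in a range of -0.125 to 0.00588). The cause was not tested. With 3 arrays per group and slide equal to treatment, and with dim probes set by the background correction, changes near background are the least certain.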
